A study of Rattus norvegicus with 6 samples.

Results

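The Wnt genes are a family of secreted ligands, and 46 gene symbols of this signaling system were compared between Schwann cell precursors (SCPs) and repair Schwann cells (RSCs) of the rat. The members were taken by name, as every symbol of the form Wnt, Fzd, Sfrp or Dkk followed by its number, together with Frzb, Wif1, Lrp5, Lrp6, Ror1, Ror2, Lgr5, Axin2 and Lef1. They were 46 of the 29468 gene symbols in the deposited tables, and 44 of them were above 0 in at least 1 sample. They fell into 19 Wnt ligands, 10 frizzled receptors, 4 co-receptors, 10 secreted antagonists and 3 genes that respond to the pathway or modulate it.

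RNA sequencing had been done on 3 SCP samples and 3 RSC samples, all from LEWIS rats, given as wild type. The paper prepared its grafted cells from transgenic LEWIS rats that express RFP, and it does not say separately which rats gave the RNA. SCPs came from sciatic nerves and brachial plexus of both sides in embryos at embryonic day 14, which received no treatment, and RSCs came from the distal sciatic nerve of animals 10 weeks old, 1 week after the nerve had been cut. The cells were dissociated with enzymes and plated briefly on uncoated plastic, to which fibroblasts and macrophages attach, so each sample was enriched rather than sorted. The labels do not say whether samples of a group came from separate animals, so p-values measure only the spread between these samples. Per the paper, RSC nerves were digested for longer and with more concentrated collagenase than SCP nerves. Age, injury and this handling cannot be told apart because all of them differ between the groups.

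Wnt proteins are lipid-modified ligands that bind frizzled receptors. With Lrp5 or Lrp6 as co-receptor they stabilise beta-catenin, which enters the nucleus and works with Lef1 and the other TCF factors on target genes such as Axin2, while with Ror1 or Ror2 they signal to the cytoskeleton without beta-catenin. The secreted frizzled-related proteins (Sfrp genes and Frzb) and Wif1 bind Wnt proteins outside the cell, and Dkk1, Dkk2 and Dkk4 bind Lrp5 and Lrp6. In nerve development and injury the pathway is known for effects on Schwann cell proliferation and myelination.

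Expression is given in FPKM, a fragment count divided by transcript length and by library size, summed over the named transcripts of a symbol. Since FPKM allows for transcript length, levels can be set side by side between genes. Each table also held transcripts without a gene name that had been assembled from that sample alone, with 26.1% to 31.9% of the FPKM in SCPs and 18.6% to 23.4% in RSCs. For several members part of the expression stood in such transcripts at the same position, and for these the value with the unnamed transcripts added is given beside the named one. In 14 members at least 1 named transcript was marked as low data by the quantification software in at least 1 sample. Every sample had such a mark for Fzd8, Lef1, Lrp6, Ror1, Wnt5a and Wnt8b. For Wnt11 the mark was in every SCP sample and 2 RSC samples, and for Sfrp5 it was in SCP sample 2. The absolute depth is unknown, and the relative depth was 0.878 to 1.0 in SCPs and 0.789 to 0.841 in RSCs.

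Sox10, the transcription factor of the Schwann lineage, was at 175 to 181 FPKM in SCPs and 143 to 149 in RSCs. The 13 Schwann lineage markers summed to 483 to 541 FPKM in SCPs and 1990 to 2540 in RSCs. Of the defining ones, Erbb3 and Foxd3 were listed at 0 in some samples of both groups by named transcripts. With unnamed transcripts added Erbb3 was at 79.8 to 102 FPKM in SCPs and 208 to 269 in RSCs, and Foxd3 was at 52.1 to 76.6 in all 6. Markers of other cells moved with the groups. Leukocyte markers were higher in RSCs in 14 of 14 tested genes, with sums of 24.1 to 70.8 FPKM in SCPs and 3020 to 3830 in RSCs. The leukocyte marker Cybb, under the filter, went the other way, at 0.341 to 1.92 FPKM in SCPs and listed at 0 in RSCs. Nerve fibroblast markers were higher in RSCs in 10 of 12, with sums of 858 to 1210 and 5480 to 8190 FPKM. In that list Fbln1 was called the other way, at 165 to 206 FPKM in SCPs and 42.5 to 50.6 in RSCs (log2 fold change -1.92). Erythroid markers summed to 16700 to 74600 FPKM in SCPs and 1.64 to 2.91 in RSCs, where Hbz and Hbe1 were listed at 0. Skeletal muscle markers summed to 38.3 to 109 FPKM in SCPs and 4.81 to 8.4 in RSCs, with Myod1 and Myf5 listed at 0 in every RSC sample, and the sums were 59.6 to 112 and 0.598 to 2.8 for cartilage and 45.1 to 71.6 and 13 to 23.5 for embryonic limb mesenchyme. Perineurial markers (37.9 to 48.2 FPKM in SCPs and 111 to 165 in RSCs) and endothelial markers (47.0 to 80.8 and 111 to 117) were also apart between groups, as were neuron markers (30 to 54 and 18.5 to 24.3), while mural markers overlapped (79.4 to 268 and 134 to 206). The part of these cells in the differences below was not tested, and in such bulk samples fewer cells of a type and less RNA per cell cannot be told apart.

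Most of the differences among the Wnt genes were toward SCPs. Of the 46 members, 31 averaged 1 FPKM or more across the samples and were tested on log2(FPKM + 1) with limma. At an unadjusted p under 0.01, 13 were higher in SCPs and 4 in RSCs. Over the 13003 genes tested, 40.5% were called in either direction, 22.4% higher in SCPs and 18.1% higher in RSCs, against 41.9% and 12.9% of the tested members. A log2 fold change past 2 on log2(FPKM + 1), called over 4-fold here, was found toward SCPs in 8 members (background 3.78%). Toward RSCs it was found in 2, Wnt6 and Dkk3 (background 7.81%), or in Dkk3 alone without SCP sample 2, where Wnt6 was at 1.92. The added 1 understates the change of low genes. Members short of this threshold could differ by more in mean FPKM, such as Wnt5b (8.35 times higher in SCPs) and Fzd7 (8.46 times higher in RSCs). With a pseudocount of 0.1 the counts were 10 and 4. With Benjamini-Hochberg adjustment over all genes tested, 12 members stayed under 0.01 in the SCP direction and 3 in the RSC direction (background in either direction 31.6%). The 3 SCP samples lay above the 3 RSC samples without overlap in 20 members (background 26.9% of all symbols above 0), the reverse held in 6 (background 19.6%), and the groups overlapped in 20. Among the 31 tested members alone the groups were apart in 21, against 33.7% (SCPs above) and 24.9% (RSCs above) of all genes tested. The median log2 fold change, RSC minus SCP, was -0.42 over the tested members and -0.17 over all genes tested. By role, the median was -2.78 for the antagonists, -1.67 for the co-receptors, -0.56 for the ligands, 0.0041 for the frizzled receptors and 0.015 for the responses. Median-of-ratios scaling moved the median of all genes to 0.0092, and the members over 4-fold higher in SCPs to 6, since Wnt5a (-1.92) and Lrp5 (-1.90) came short of -2. The filter on mean FPKM keeps members that are high in only 1 group, so these counts describe the tested members and not all 46.

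**Figure D1:**
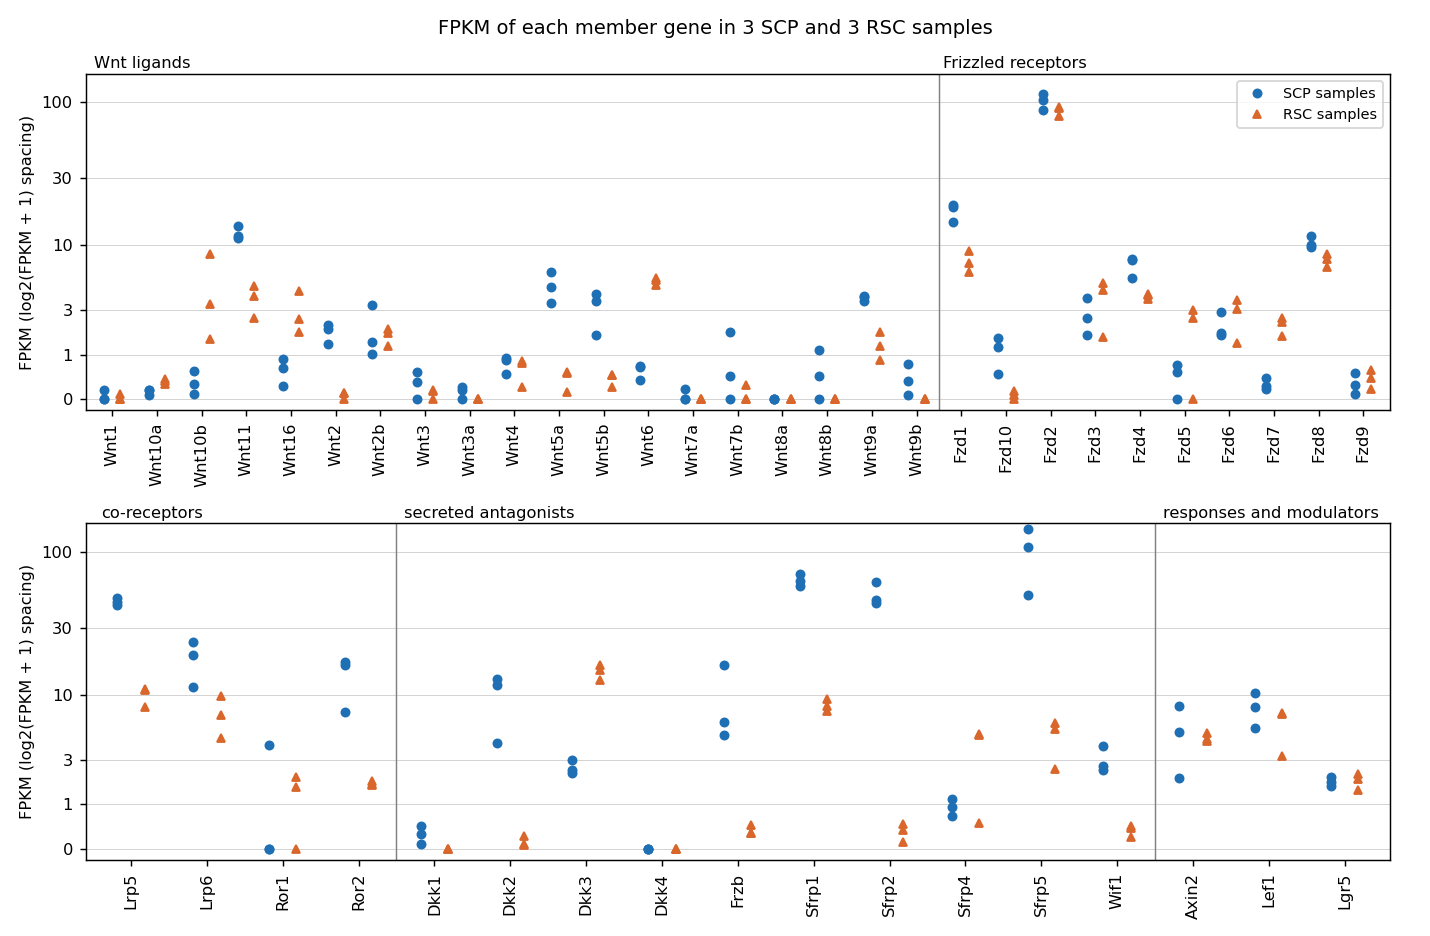
FPKM of each of the 46 members in 3 SCP samples (circles) and 3 RSC samples (triangles), on an axis spaced as log2(FPKM + 1) and ordered by role. Fzd2 lies at 80.5 to 114 FPKM in both groups, while the SCP samples of Sfrp1, Sfrp2 and Sfrp5 lie far above the RSC samples.

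**Figure D2:**
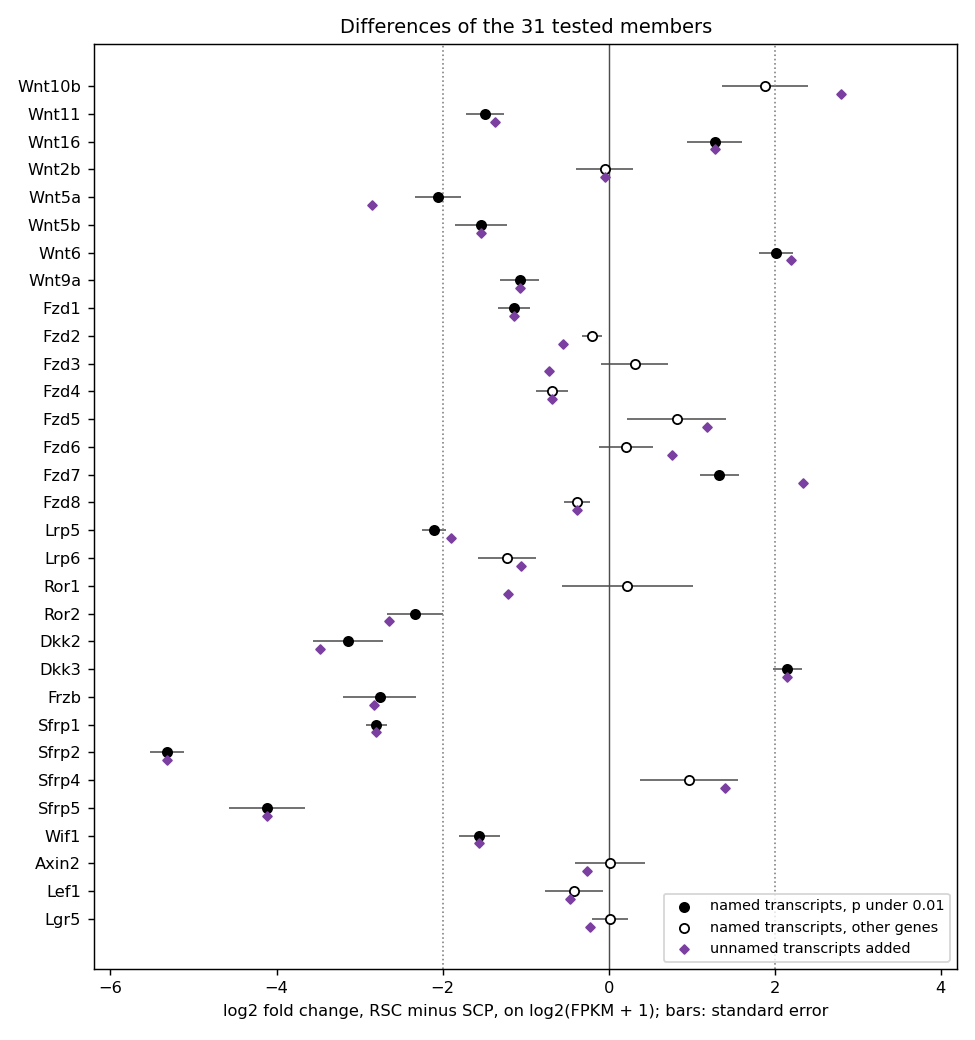
Log2 fold change, RSC minus SCP, of the 31 tested members on log2(FPKM + 1), with bars of 1 standard error. Filled circles have p under 0.01, dotted lines mark 4-fold on this scale, and diamonds give the value with unnamed transcripts added, which moves most for Ror1, Fzd3, Fzd7, Wnt5a and Wnt10b.

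Promoter sequence was taken from RefSeq (assembly GRCr8, 250 bases before the gene start) and matched 32 of the 46 members, not Dkk2, Dkk3, Dkk4, Fzd2, Fzd3, Fzd6, Lgr5, Lrp5, Lrp6, Sfrp1, Sfrp4, Wnt10b, Wnt5b and Wnt7b. Short motifs were searched on both strands, CTTTGAT and CTTTGAA for the TCF and LEF factors, GGGCGG for the GC box and TATAAA for the TATA box. A TCF or LEF motif was found in 7.58% of 33469 rat promoters and in 3 of the 32 members, Axin2, Dkk1 and Wnt8a. GGGCGG was in 30.5% of all promoters and in 17 members, and TATAAA in 12.9% and in 1 member, Dkk1. The median GC content was 65.2% in the members and 51.2% in all promoters. The windows shown are those of the member with the largest change toward SCPs, of the ligand with the largest tested change toward RSCs, and of the target gene Axin2, with motif matches in capitals. A match is a description of the letters and not a binding site.
Sfrp2 (chr2:171387286-171387535, plus strand, no match): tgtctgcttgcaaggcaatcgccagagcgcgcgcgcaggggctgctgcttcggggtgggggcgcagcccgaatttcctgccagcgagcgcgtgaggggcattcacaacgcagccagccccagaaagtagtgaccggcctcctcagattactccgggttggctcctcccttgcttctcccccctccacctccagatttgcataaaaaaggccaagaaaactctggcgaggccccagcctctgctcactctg
Wnt6 (chr9:83778302-83778551, plus strand, GGGCGG on the opposite strand in capitals): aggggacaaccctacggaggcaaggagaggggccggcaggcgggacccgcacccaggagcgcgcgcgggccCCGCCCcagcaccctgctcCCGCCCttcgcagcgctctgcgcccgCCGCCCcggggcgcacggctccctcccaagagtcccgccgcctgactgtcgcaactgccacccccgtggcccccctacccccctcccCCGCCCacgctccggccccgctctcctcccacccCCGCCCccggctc
Axin2 (chr10:94398535-94398784, plus strand, CTTTGAA and CTTTGAT in capitals): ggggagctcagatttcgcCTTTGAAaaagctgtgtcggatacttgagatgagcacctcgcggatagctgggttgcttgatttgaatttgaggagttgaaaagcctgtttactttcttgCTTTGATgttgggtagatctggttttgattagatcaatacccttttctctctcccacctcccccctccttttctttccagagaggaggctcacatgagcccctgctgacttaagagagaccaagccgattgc
The Wnt6 window held 5 GC boxes, the nearest ending 8 bases before the gene start. In the Axin2 window the matches began 232 and 132 bases before the start.

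Among the Wnt ligands, 4 of 8 tested genes were higher in SCPs (Wnt5a, Wnt5b, Wnt9a and Wnt11) and 2 were higher in RSCs (Wnt6 and Wnt16). Of all genes tested, 22.4% were called higher in SCPs and 18.1% higher in RSCs. The ligands summed to 28.4 to 35.2 FPKM in SCPs and 18.2 to 26.6 in RSCs, so the sums were apart. Wnt11 was the most abundant ligand in each SCP sample, Wnt10b in RSC sample 1 and Wnt6 in RSC samples 2 and 3 by named transcripts, and in RSC sample 2 it was Wnt10b with unnamed transcripts added. Wnt11, which is known for signaling in morphogenesis without beta-catenin, was at 13.8, 11.2 and 11.6 FPKM in SCP samples 1, 2 and 3 and at 4.78, 3.98 and 2.55 in the RSC samples. Every SCP sample was above every RSC sample. It fell by 1.49 on the log2 scale from SCPs to RSCs (standard error 0.23, adjusted p = 0.00305 by limma), and its share of the summed ligands was 35.2% to 39.6% in SCPs and 14.0% to 20.3% in RSCs.

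Wnt5a, a ligand of Ror2, was at 4.76, 3.46 and 6.24 FPKM in SCPs and 0.12, 0.53 and 0.51 in RSCs. The groups were apart, with SCP samples many times higher than RSC samples. On the log2 scale RSCs differed by -2.05 (standard error 0.28, adjusted p = 0.00193, limma), and it was -2.85 with unnamed transcripts added, where SCPs reached 9.7, 7.31 and 9.99 FPKM and nothing was added in RSCs. Wnt5a fell short of -2 on this scale relative to the median gene (-1.88) and with the highest transcript per gene (-1.79). The same held without SCP sample 3 (-1.88) and without RSC sample 1 (-1.90). The ratio of mean FPKM of Wnt5a, SCP over RSC, was 12.4. At least 1 of its 4 named transcripts was marked as low data in every sample. Wnt5b, its closest relative, was at 4.1, 3.57 and 1.71 FPKM in SCPs and 0.46, 0.21 and 0.45 in RSCs, again without overlap. Its log2 fold change was -1.54 (standard error 0.31, adjusted p = 0.00889, limma), and the unadjusted p rose to 0.0104 without SCP sample 2 and to 0.0105 without RSC sample 2. Wnt9a, known from joint and limb development, was at 3.6, 3.94 and 3.9 FPKM in SCPs and 1.86, 0.85 and 1.29 in RSCs. The SCP samples lay close together and above all RSC samples. Its log2 fold change of -1.07 (standard error 0.23, limma) had an unadjusted p of 0.00401, which rose to between 0.0107 and 0.0137 when SCP sample 1, 2 or 3 or RSC sample 2 or 3 was left out.

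Wnt6 was the ligand called with a log2 fold change past 2 in RSCs on log2(FPKM + 1). It was at 0.65, 0.34 and 0.68 FPKM in SCPs and 5.37, 4.9 and 5.58 in RSCs, where it had the highest mean of the ligands by named transcripts (with unnamed transcripts added, Wnt10b had 7.95 FPKM and Wnt6 6.28). The 3 RSC samples were close to each other and far above the SCP samples. The ratio of mean FPKM, RSC over SCP, was 9.49 for Wnt6, against 15 for Wnt10b and 5.04 for Wnt16. Wnt6 rose by 2.02 on the log2 scale (standard error 0.20, adjusted p = 6.23e-04, limma) and 2.19 relative to the median gene. It was 1.92 without SCP sample 2 and 1.98 without RSC sample 3, just short of 2. Its share of the ligand sum was 1.21% to 2.06% in SCPs and 20.2% to 30.6% in RSCs. Wnt10a, which lies 6.4 kb from Wnt6 on chromosome 9 in rn6, was under the filter at 0.0709 to 0.16 FPKM in SCPs and 0.267 to 0.369 in RSCs, also without overlap and with RSCs above.

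Wnt16 was at 0.24, 0.88 and 0.62 FPKM in SCPs and 1.85, 2.47 and 4.42 in RSCs. RSC samples were above SCP samples, with RSC sample 3 highest. Wnt16 rose by 1.28 on the log2 scale (standard error 0.33, unadjusted p = 0.00858, limma), and the p rose to between 0.013 and 0.0267 when SCP sample 1, 2 or 3 or RSC sample 2 or 3 was left out. Wnt10b, a ligand that acts through beta-catenin, was at 0.0845, 0.553 and 0.267 FPKM in SCPs and 8.61, 3.41 and 1.53 in RSCs. The groups were apart but the RSC samples were spread widely, and the p of 0.0108 missed the threshold (log2 fold change 1.88, standard error 0.51, limma). In RSC samples 2 and 3 the transcript was marked as low data, and with unnamed transcripts added the RSC samples came to 8.61, 8.02 and 7.2 FPKM and the SCP samples did not move. For Wnt10b the log2 fold change was then 2.79 (unadjusted p = 2.62e-06, limma), and without RSC sample 3 it was 2.34 (unadjusted p = 0.00316).

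Wnt2b did not pass the test, with 1.42, 1.02 and 3.34 FPKM in SCPs and 1.99, 1.81 and 1.28 in RSCs (log2 fold change -0.05, standard error 0.35, limma). The groups overlapped, and SCP sample 3 was the highest of the 6. The other 11 ligands were under the filter. Wnt2 was the highest of them at 2.15, 1.36 and 1.99 FPKM in SCPs and 0.10, 0.10 and 0 in RSCs, without overlap. Wnt9b was at 0.0615 to 0.731 FPKM in SCPs and listed at 0 in all RSC samples. Wnt1, Wnt3, Wnt3a, Wnt4, Wnt7a, Wnt7b and Wnt8b were between 0 and 1.83 FPKM in every sample with overlapping groups, and Wnt8a was listed at 0 in all 6. Wnt3a and Wnt9a are neighbours on chromosome 10 in rn6, 15.9 kb apart, as are Wnt9b and Wnt3 at 22.7 kb, and Wnt10b and Wnt1 lie 10.7 kb apart on chromosome 7.

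**Figure D3:**
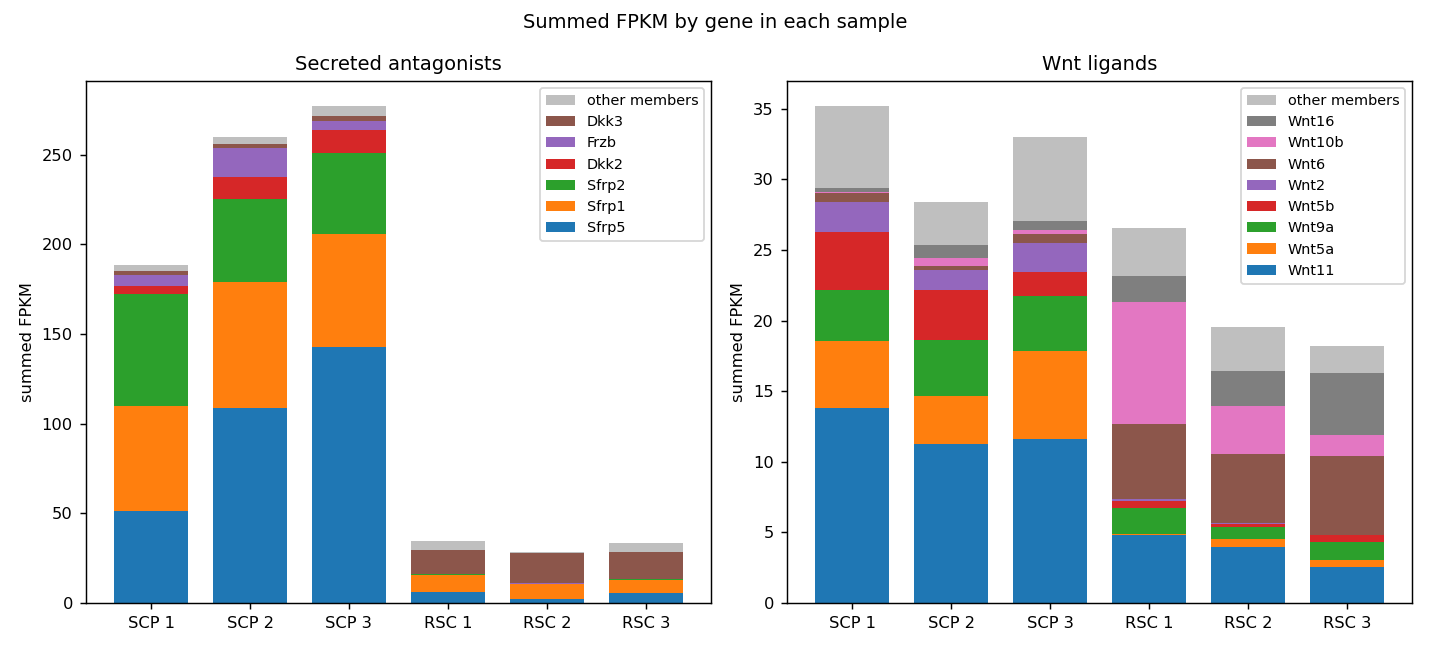
Summed FPKM of the secreted antagonists (left) and the Wnt ligands (right) in each sample, stacked by gene, with the remaining members of each role in light grey. Antagonist sums are 188 to 277 FPKM in SCPs and 28.5 to 34.6 in RSCs, and in the ligand stack Wnt6, Wnt10b and Wnt16 are wider in RSCs while Wnt11 keeps 14.0% to 20.3% of the sum there.

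The frizzled receptors, which bind the ligands at the cell surface, were called differently with and without unnamed transcripts. Of 8 tested genes, Fzd1 was higher in SCPs, Fzd7 was higher in RSCs and 6 made no call from named transcripts, while with unnamed ones added 4 were higher in SCPs and 3 in RSCs. From named transcripts this was 12.5% in each direction, against 22.4% and 18.1% of all genes tested. Fzd2 held 66.2% to 74.1% of the frizzled FPKM in SCPs and 71.6% to 76.8% in RSCs. It was at 114, 88.0 and 103 FPKM in SCPs and 80.5, 92.2 and 91.0 in RSCs. The groups overlapped, since SCP sample 2 was below RSC samples 2 and 3. The log2 fold change was -0.20 (standard error 0.12, unadjusted p = 0.138, limma), and it was 0.01 after median-of-ratios scaling. The transcript was marked as low data in all 3 SCP samples and in no RSC sample, and with unnamed transcripts added Fzd2 came to 140, 119 and 128 FPKM in SCPs, above every RSC sample, with a log2 fold change of -0.55 (unadjusted p = 7.56e-04, limma). The background of the comparison with unnamed transcripts was 34.1% of 14020 genes higher in SCPs and 23.2% higher in RSCs.

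Fzd1 was at 19.4, 18.9 and 14.7 FPKM in SCPs and 7.27, 9.01 and 6.19 in RSCs. All SCP samples were above all RSC samples, by a ratio of means of 2.36. Fzd1 changed by -1.14 on the log2 scale (standard error 0.19, adjusted p = 0.00403, limma), and no unnamed transcript lay at this gene. Fzd7 went the other way, from 0.17, 0.39 and 0.22 FPKM in SCPs to 2.55, 1.65 and 2.33 in RSCs. The groups were apart at a low level. Its log2 fold change was 1.33 (standard error 0.24, adjusted p = 0.0054, limma) and 2.34 with unnamed transcripts added, where RSCs reached 3.72, 6.59 and 6.14 FPKM.

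Fzd4, a receptor also used by norrin, and Fzd8 were above in every SCP sample but did not pass the test. Fzd4 was at 5.54, 7.86 and 7.75 FPKM in SCPs and 4.12, 3.77 and 4.03 in RSCs (log2 fold change -0.68, unadjusted p = 0.0115, limma), and without SCP sample 1 the p was 0.00548. Fzd8 was at 9.59 to 11.7 FPKM in SCPs and 6.85 to 8.62 in RSCs, with a log2 fold change of -0.38 (unadjusted p = 0.0481, limma). Of the receptors with overlapping groups, Fzd3 was at 1.73 to 3.82 FPKM in SCPs and 1.64 to 5.07 in RSCs. Here the named transcript was marked as low data in all SCP samples and in RSC sample 2, and with unnamed transcripts added SCPs rose to 7.86 to 8.83 FPKM and RSCs to 4.5 to 5.07, which turned the log2 fold change of Fzd3 from 0.31 to -0.72 (unadjusted p = 6.37e-04, limma).

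Fzd5 was at 0, 0.515 and 0.698 FPKM in SCPs and 2.54, 0 and 2.98 in RSCs. The 0 of RSC sample 2 was marked as low data, and the unnamed transcripts there held 3.88 FPKM. With them added the RSC samples lay above the SCP samples (log2 fold change 1.19, unadjusted p = 0.00129, limma, against 0.82 and 0.22 for the named transcript), and without RSC sample 2 the named value was 1.45 with a p of 0.00663. Fzd6 overlapped at 1.72 to 2.85 FPKM in SCPs and 1.41 to 3.65 in RSCs (log2 fold change 0.21, limma), and with unnamed transcripts added its log2 fold change was 0.76 (unadjusted p = 0.00608). Fzd9 and Fzd10 were under the filter. Fzd10 was at 1.26, 0.483 and 1.57 FPKM in SCPs and 0, 0.0634 and 0.134 in RSCs, without overlap, and Fzd9 was at most at 0.572 FPKM.

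Of the 4 co-receptors, Lrp5 and Ror2 were over 4-fold higher in SCPs, and Lrp6 and Ror1 made no call from their named transcripts. Over all genes tested, 22.4% were called higher in SCPs. With unnamed transcripts added all 4 were called higher in SCPs, against 34.1% of all genes in that fit. Lrp5, which with Lrp6 carries the signal to beta-catenin, was at 48.1, 43.5 and 45.3 FPKM in SCPs and 8.04, 10.8 and 10.9 in RSCs. Both groups were tight and lay far apart. Lrp5 changed by -2.10 on the log2 scale (standard error 0.14, adjusted p = 1.5e-04, limma), and the ratio of mean FPKM, SCP over RSC, was 4.59. The log2 value was -1.93 relative to the median gene, -1.97 without RSC sample 1 and -1.90 with unnamed transcripts added, short of -2 in each. Lrp6 was at 23.7, 19.2 and 11.4 FPKM in SCPs and 6.99, 9.69 and 4.62 in RSCs. The groups were apart, with sample 3 lowest in each. Its log2 fold change of -1.23 (standard error 0.35, limma) had an unadjusted p of 0.0127, which was 0.00573 without SCP sample 3, and with unnamed transcripts added Lrp6 was at 23.6 to 25.4 FPKM in SCPs and 9.69 to 14.4 in RSCs (log2 fold change -1.05, unadjusted p = 4.43e-04).

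Ror2, a receptor tyrosine kinase for Wnt5a, was at 16.5, 17.4 and 7.38 FPKM in SCPs and 1.69, 1.75 and 1.86 in RSCs. SCP sample 3 was less than the other SCP samples but still well above every RSC sample. Ror2 changed by -2.33 on the log2 scale (standard error 0.34, adjusted p = 0.00243, limma), and it was -1.81 when the transcript with the highest mean stood for the gene. Its relative Ror1 could not be read from named transcripts, which were listed at 0, 4.01 and 0 FPKM in SCPs and 0, 1.6 and 2.07 in RSCs and marked as low data in all 6 samples. With unnamed transcripts added Ror1 was at 15, 21.7 and 15 FPKM in SCPs and 5.9, 7.3 and 7.17 in RSCs. The groups were then apart, and the log2 fold change went from 0.22 (unadjusted p = 0.787) to -1.21 (unadjusted p = 3.07e-04, limma).

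**Figure D4:**
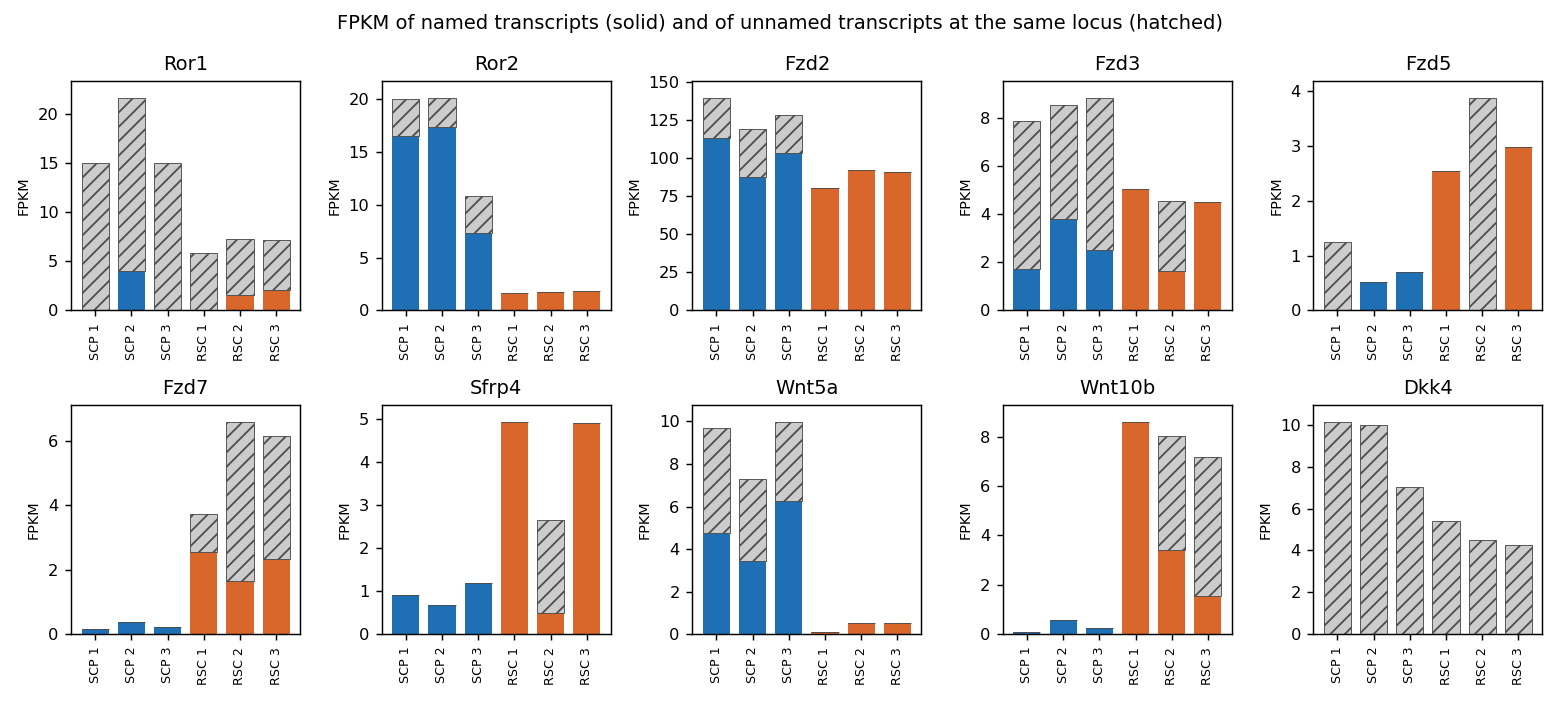
FPKM of 10 members in each sample, split into named transcripts (solid, blue for SCPs and orange for RSCs) and unnamed transcripts at the same locus (hatched), on axes that start at 0. For Ror1 and Dkk4 most or all of the bar is hatched, and for Fzd2 only the SCP bars carry a hatched part.

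The largest differences of the family were in the secreted antagonists. Of 8 tested, 6 were higher in SCPs, 5 of them over 4-fold, and 1, Dkk3, was higher in RSCs. The background over all genes tested was 22.4% higher in SCPs, 3.78% over 4-fold higher in SCPs, and 18.1% higher in RSCs. The 10 antagonists summed to 188, 260 and 277 FPKM in SCPs and 34.6, 28.5 and 33.7 in RSCs, and the ratio of antagonist to ligand FPKM was 5.35, 9.16 and 8.4 in SCPs and 1.3, 1.46 and 1.85 in RSCs. Neither the sums nor the ratios overlapped. With unnamed transcripts added the ratio was 5.11 to 8.37 in SCPs and 1.31 to 1.5 in RSCs. Sfrp1, Sfrp2 and Sfrp5 together made up 86.8% to 91.5% of the antagonist FPKM in SCPs and 37.7% to 45.9% in RSCs.

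Sfrp2 (chromosome 2 from 182723732 to 182731277 in rn6) was at 62.8, 46.7 and 44.8 FPKM in SCPs and 0.47, 0.11 and 0.34 in RSCs. Each SCP sample was above every RSC sample, and the ratio of the means was 168. On the log2 scale the difference was -5.32 (standard error 0.21, adjusted p = 2.74e-05, limma). Sfrp1 was at 58.7, 70.2 and 63.0 FPKM in SCPs and 9.34, 8.19 and 7.48 in RSCs. Its samples were close together within each group, and in RSCs it was still the second antagonist by level. Sfrp1 changed by -2.80 on the log2 scale (standard error 0.12, adjusted p = 4e-05, limma). Sfrp5 was the most abundant antagonist of SCPs by mean, at 51.0, 109 and 143 FPKM, and was at 6.06, 2.45 and 5.41 FPKM in RSCs. The groups did not overlap although the SCP samples ranged widely, and Sfrp5 differed by -4.12 on the log2 scale (standard error 0.46, adjusted p = 8.97e-04, limma). The summed markers of 4 of the 11 cell type lists had the same order over SCP samples 1, 2 and 3, with 38.3, 56.0 and 109 FPKM for skeletal muscle, 59.6, 86.4 and 112 for cartilage, 24.1, 53.9 and 70.8 for leukocytes and 858, 1090 and 1210 for nerve fibroblasts. Their part in Sfrp5 was not tested.

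Frzb, an antagonist first known from cartilage, was at 6.14, 16.4 and 4.86 FPKM in SCPs and 0.28, 0.45 and 0.27 in RSCs. SCP sample 2 was highest and all SCP samples were above RSCs. The log2 fold change was -2.76 (standard error 0.44, adjusted p = 0.00356, limma), and it was -1.95 with an unadjusted p of 0.0213 when the transcript with the highest mean stood for the gene. Wif1 was at 2.38, 2.62 and 3.94 FPKM in SCPs and 0.43, 0.38 and 0.21 in RSCs, without overlap. Its log2 fold change was -1.56 (standard error 0.25, adjusted p = 0.00353, limma).

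The Dkk genes differed among themselves. Dkk2, which binds Lrp5 and Lrp6, was at 4.21, 11.9 and 13.1 FPKM in SCPs and 0.22, 0.0658 and 0.0698 in RSCs. The SCP samples were all far above the RSC samples, with SCP sample 1 lowest. The log2 fold change was -3.14 (standard error 0.42, adjusted p = 0.00184, limma), and with unnamed transcripts added SCP sample 1 came to 9.55 FPKM and the log2 fold change to -3.48. Dkk3, a divergent member not known to bind Lrp5 or Lrp6, was at 2.25, 2.39 and 3.01 FPKM in SCPs and 12.9, 16.4 and 15 in RSCs. The RSC samples were all above the SCP samples, and Dkk3 was the most abundant antagonist in each RSC sample. Dkk3 rose by 2.15 on the log2 scale (standard error 0.17, adjusted p = 2.82e-04, limma), and its share of the antagonist FPKM was 0.921% to 1.19% in SCPs and 37.2% to 57.5% in RSCs.

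Dkk1 was under the filter, at 0.082, 0.422 and 0.259 FPKM in SCPs and listed at 0 in all RSC samples. Dkk4 was listed at 0 in all 6 samples by its named transcript, while unnamed transcripts placed at its locus held 7.02 to 10.1 FPKM in SCPs and 4.25 to 5.39 in RSCs. These could not be tied to Dkk4 rather than to another gene there, and they are counted with it in the values with unnamed transcripts added. Sfrp4 did not pass the test, at 0.915, 0.664 and 1.18 FPKM in SCPs and 4.93, 0.488 and 4.89 in RSCs. RSC sample 2 lay below the SCP samples and the other two lay above them. With unnamed transcripts added that sample came to 2.64 FPKM, the groups were apart and the log2 fold change went from 0.97 (unadjusted p = 0.15) to 1.40 (unadjusted p = 9.24e-04, limma), and without RSC sample 2 the named value was 1.63 (unadjusted p = 0.00115).

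The 3 genes that respond to the pathway or modulate it made no call in either direction by limma, and the lowest unadjusted p was 0.28. Axin2, a feedback inhibitor and target gene of beta-catenin whose promoter window is shown above, was at 8.18, 5.17 and 2.0 FPKM in SCPs and 5.05, 4.33 and 4.49 in RSCs. The groups overlapped, and SCP samples were both the highest and the lowest. Its log2 fold change was 0.02 (standard error 0.42, unadjusted p = 0.964, limma). The value of SCP sample 3 was marked as low data, and with unnamed transcripts added Axin2 was at 8.18, 5.17 and 9.01 FPKM in SCPs and 8.3, 5.51 and 4.49 in RSCs, still overlapping. Lef1, the nuclear partner of beta-catenin, was at 10.3, 5.57 and 8.12 FPKM in SCPs and 7.27, 7.16 and 3.24 in RSCs, summed over 10 named transcripts. At least 1 of these transcripts was marked as low data in every sample. The groups overlapped, and Lef1 differed by -0.42 on the log2 scale (standard error 0.35, unadjusted p = 0.28, limma). Lgr5, a receptor for R-spondins and itself a target gene, was at 1.64, 1.81 and 2.08 FPKM in SCPs and 1.5, 1.95 and 2.2 in RSCs (log2 fold change 0.01, standard error 0.21, limma). A p over the threshold does not show equal levels, and for Axin2 the standard error leaves room for a change in either direction.

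Other genes of the pathway were read from a list written from general knowledge. Of 108 genes 103 were found and 86 tested, of which 21 were higher in SCPs and 10 in RSCs by the same threshold. These shares, 24.4% and 11.6%, stand beside 22.4% and 18.1% of all genes tested, so the SCP share from named transcripts was near the background. With unnamed transcripts added the counts were 42 and 20, where 34.1% and 23.2% of all genes were called. The shares of the list were not computed in that setting, so the reading near the background does not extend to it. The median log2 fold change of the tested ones was -0.45. Wls, the carrier that exports Wnt proteins, was at 49.2 to 52.5 FPKM in SCPs and 34.0 to 42.2 in RSCs (log2 fold change -0.41, unadjusted p = 0.00748, limma), the 1 call among 2 tested secretion genes. Rspo3, a ligand of the Lgr receptors, was at 10.3, 15.8 and 6.72 FPKM in SCPs and listed at 0 in all RSC samples, and was the 1 call among 4 tested R-spondin and receptor turnover genes. Reck, which works with Wnt7 ligands, was at 60.9 to 68.6 FPKM in SCPs and 28.8 to 35.3 in RSCs, and was the 1 call among 9 other receptors. Of 8 genes listed as other secreted regulators 2 were called in each direction, with Dkkl1 at 0.964 to 5.11 FPKM in SCPs and listed at 0 in RSCs. Cthrc1, which was put in this list but is known as a cofactor of Wnt proteins and their receptors and not as an antagonist, was at 23.5 to 25.5 FPKM in SCPs and 80.4 to 104 in RSCs (log2 fold change 1.85).

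Inside the cell, 8 of 23 tested genes of the destruction complex and its Dishevelled partners were higher in SCPs and 2 in RSCs. These shares, 34.8% and 8.7%, stand beside 22.4% and 18.1% of all genes tested. Nkd2, an inhibitor of Dishevelled, had the larger change of the 2 called toward RSCs (log2 fold change 0.83), and Cxxc4, another one, was at 1.92 to 4.11 FPKM in SCPs and listed at 0 in RSCs. Of 14 nuclear partners of beta-catenin 5 were higher in SCPs (35.7%) and 1 in RSCs (7.14%). Tcf7l1, a TCF factor that mostly represses, was at 52.4, 49.0 and 43.4 FPKM in SCPs and 5.26, 3.39 and 4.78 in RSCs, and Tcf7 was at 4.36 to 4.67 FPKM in SCPs and 7.48 to 11.5 in RSCs. These factors moved in opposite directions, by log2 fold changes of -3.18 and 0.82. Of 9 tested target genes 4 were higher in RSCs (44.4%: Ccnd1, Myc, Cd44 and Fosl1) and 1 in SCPs (11.1%: Twist1). Nkd1, Znrf3, Tnfrsf19 and Jun, also tested, made no call (unadjusted p = 0.375, 0.542, 0.376 and 0.696, limma). Cd44 had the largest change, from 0.709, 0.788 and 1.49 FPKM in SCPs to 82.9, 75.1 and 83.2 in RSCs. Cd44 is also a gene of leukocytes, whose 14 tested markers were all higher in RSCs, and Twist1 is also in the list of embryonic limb mesenchyme markers. The part of these cells in either change was not tested. Of 10 planar cell polarity genes Vangl2 was higher in SCPs (log2 fold change -2.42) and Celsr2 in RSCs (1.55), and of 9 Wnt-calcium genes Nfatc3 was the 1 call, higher in SCPs (-0.83).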

How the data were processed

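Stranded mRNA libraries of 3 SCP and 3 RSC samples were sequenced as paired ends by the authors. Per the labels the reads were checked with FastQC 0.11.2, mapped to rn6 with TopHat2 2.1.0 and quantified with Cufflinks 2.2.1. The authors deposited 1 Cufflinks transcript table per sample with FPKM, normalized for transcript length and mapped fragments, and with read coverage, a signal whose ratio to FPKM gave the relative depth. The tables hold no counts, so no count-based test was run, and the absolute depth and detection limits are unknown.

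From these tables, 77 transcripts per table whose gene names had been turned into dates were left out, stray spreadsheet cells beside 3 to 13 rows were ignored, and FPKM of named transcripts were summed by symbol. The 13003 genes averaging 1 FPKM or more entered a two-sided limma test (limma 3.58.1, R 4.3.3) of RSCs against SCPs, fitted to log2(FPKM + 1) over the whole table, using a variance trend but no replicate block. The scale understates the change of low genes. Calls were made at an unadjusted p under 0.01 and at a log2 fold change past 2 (4-fold), as in the study's methods, and p-values were adjusted by Benjamini-Hochberg across the 13003 genes. The scripts were tested on simulated data. Positions are those of the tables on rn6, spanning all transcripts of a symbol. Promoters came from RefSeq (GRCr8). Python 3.11.15, pandas 2.3.3 and matplotlib 3.10.9 were used.

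The members, the other pathway genes and the marker lists were chosen with earlier results of these data known. Sample values are given for members with p under 0.01 and for the most abundant member of each role in each group; of the other pathway genes, each list's largest called change in either direction is named. Further members with sample values, such as Wnt10b, Ror1, Lrp6, Sfrp4, Axin2 and Lgr5, were named after their values were seen. The same holds for Ccnd1, Myc, Fosl1, Nkd1, Znrf3, Tnfrsf19 and Jun, and for the marker Fbln1. Some marker genes are not reported here. Same-numbered samples of the groups did not deviate together (correlations 0.044, -0.005 and 0.026), so numbers were not taken to pair samples. The fits were repeated with a pseudocount of 0.1, without the filter or with a mean of 5 FPKM or more, after quantile normalization or scaling by median-of-ratios, without the variance trend, with the replicate number as block, at an adjusted p, leaving out each sample in turn, with the highest transcript standing for a gene, with unnamed transcripts given to the gene they overlap most within their Cufflinks locus, and with a value of 0 dropped where its group held another value of 5 FPKM or more.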

Additional observations from a re-analysis of the deposited data

How the results depend on the processing

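Of the 17 members called, 8 passed the threshold under every alternative, 4 (Wnt5a, Wnt6, Dkk2 and Wif1) passed in all but the filter at a mean of 5 FPKM, which removed them untested, and 5 (Wnt16, Wnt9a, Wnt5b, Fzd7 and Frzb) were lost under at least 1. No called member reversed where it was tested. Adding unnamed transcripts changed the most. It raised the members higher in RSCs from 4 to 8 and in SCPs from 13 to 19, moved those over 4-fold from 2 to 4 and from 8 to 7, and raised the other pathway genes from 10 to 20 in RSCs and from 21 to 42 in SCPs, and the share of all genes called rose as well, to 23.2% and 34.1%. A mean of at least 5 FPKM, which leaves fewer genes tested, gave 1 member higher in RSCs, 7 in SCPs, and 1 and 5 over 4-fold. The replicate block gave 2 members higher in RSCs, where Wnt16 and Fzd7 were lost, and 12 in SCPs, but the numbers were not shown to pair the samples. Members over 4-fold in RSCs were 4 with a pseudocount of 0.1 and 1 with quantile normalization, and those in SCPs were 5 with the highest transcript per gene and 6 with median-of-ratios scaling. Except for the added transcripts and the filter, the cause of these changes was not tested. Leaving out 1 sample at a time gave 3 to 5 members higher in RSCs, 11 to 13 in SCPs, 1 to 2 and 6 to 8 over 4-fold, and 8 to 11 and 17 to 22 other pathway genes. The count of 1 came without SCP sample 2, where Wnt6 was at 1.92. Log2 fold changes that reversed were all of members without a call. With median-of-ratios scaling Wnt2b was 0.081 and Fzd2 0.011. With unnamed transcripts Fzd3 was -0.72, Ror1 -1.21, Axin2 -0.26 and Lgr5 -0.23, and with quantile normalization Lgr5 was -0.11. Leaving out 1 sample at a time gave -0.28 to 0.28 for Wnt2b (above 0 without SCP sample 3 or RSC sample 3), -0.16 to 1.00 for Ror1 (below 0 without SCP sample 1 or 3 or RSC sample 3), -0.42 to 0.38 for Axin2 (below 0 without SCP sample 3 or RSC sample 1) and -0.065 to 0.11 for Lgr5 (below 0 without SCP sample 1 or RSC sample 2 or 3). With 3 samples a group and an unknown depth, values under about 1 FPKM have no sampling error that can be given.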
